A study of Drosophila melanogaster with 3 samples.

Results

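The 300 regions with the highest FoxP-eGFP signal on the chromosome arms of Drosophila melanogaster were taken from the thresholded list of regions called on pooled reads. They were chosen by the authors' deposited signal value alone, after the regions on the mitochondrial genome were dropped, and are 300 of 2395 thresholded arm regions (of 2415 in the whole list). Chromatin immunoprecipitation with sequencing was done in 3 biological replicates, which form 1 group. Each replicate came from whole prepupae, males and females pooled and age unknown, of a single transgenic line, fd85E-GFP, that stably expresses FoxP (fd85E) carrying eGFP at the C-terminal end, and the tagged protein was precipitated with an antibody against GFP. No line without the tag is used here, and because whole animals were taken, a signal cannot be assigned to a tissue. The signal value has no stated scale, pooled values have no replicate error, and read depth is unknown, so values are used to rank regions within a list. The labels call the replicates biological without saying how the animals were separated. Among the 300, X-linked regions ranked lower in replicate 1 than in replicates 2 and 3, and the count of members held by all replicates is also given without each replicate.

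FoxP is the fly member of the FOXP group of forkhead transcription factors, proteins that bind DNA through a winged-helix domain and recognise A+T-rich sites with a core such as TAAACA. Vertebrate FOXP proteins mostly act as repressors, and in flies FoxP is best known for roles in neurons, in motor learning and in decision making. The prepupa is the stage between larva and pupa, when the steroid hormone ecdysone drives the loss of larval tissues and the building of adult ones. A summit is the position of highest signal that the authors gave for a region, and a promoter summit here lies no more than 500 bp from where a protein-coding gene begins.

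The DNA at the summits of some of the highest members below rank 20 shows what the forkhead core looks like there. The lines below give 121 bp centred on the summit, from the RefSeq genome of the Release 6 assembly (dm6), 5′ to 3′ on the plus strand, with TAAACA or its reverse complement TGTTTA in capitals. The first 6 are the highest-ranked members from rank 21 on that had the core within 60 bp of the summit, and the last 3 are the highest-ranked that had none within 100 bp. Members whose window touched an untranslated exon or lay on one of the arms not printed were passed over. The windows are chr2L:3302143-3302263 in an intron of CG9663 (rank 26, with 2 cores), chr3L:14759456-14759576 in an intron of Trl (rank 31), chr2L:10010186-10010306 upstream of Trp1 (rank 32), chr3R:15229455-15229575 upstream of Art3 and mRpS10 (rank 36), chr2L:4997578-4997698 at Rtnl1 (rank 37) and chrX:15867902-15868022 at Gapdh2 (rank 38). Those without the core are chr3R:20778601-20778721 at Syp (rank 21), chrX:5918855-5918975 in an intron of CG3726 (rank 22) and chr2L:2202323-2202443 outside protein-coding genes near CG31668 (rank 23). GC content of the 9 windows ran from 23.1% at CG31668 to 50.4% at Syp.
CG9663: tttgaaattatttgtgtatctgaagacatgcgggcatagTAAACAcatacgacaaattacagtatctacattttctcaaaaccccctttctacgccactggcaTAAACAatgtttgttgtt
Trl: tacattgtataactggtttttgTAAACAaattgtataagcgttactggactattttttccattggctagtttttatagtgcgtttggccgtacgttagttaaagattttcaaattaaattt
Trp1: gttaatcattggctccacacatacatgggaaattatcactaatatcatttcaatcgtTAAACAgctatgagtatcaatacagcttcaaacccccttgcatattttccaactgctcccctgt
Art3: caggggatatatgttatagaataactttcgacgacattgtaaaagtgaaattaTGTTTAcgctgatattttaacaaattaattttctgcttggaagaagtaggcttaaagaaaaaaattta
Rtnl1: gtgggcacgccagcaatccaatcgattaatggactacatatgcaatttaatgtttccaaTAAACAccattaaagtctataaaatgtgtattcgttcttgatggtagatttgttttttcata
Gapdh2: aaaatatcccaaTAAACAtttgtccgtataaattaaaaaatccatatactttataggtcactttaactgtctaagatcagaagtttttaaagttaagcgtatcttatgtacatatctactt
Syp: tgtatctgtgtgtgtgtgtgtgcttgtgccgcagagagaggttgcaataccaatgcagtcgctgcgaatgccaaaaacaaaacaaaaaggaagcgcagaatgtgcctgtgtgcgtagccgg
CG3726: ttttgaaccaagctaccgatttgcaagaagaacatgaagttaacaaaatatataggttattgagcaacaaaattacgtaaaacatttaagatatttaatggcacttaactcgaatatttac
CG31668: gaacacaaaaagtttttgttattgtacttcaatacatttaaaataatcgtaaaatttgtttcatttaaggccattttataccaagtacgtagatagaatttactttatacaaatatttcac

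Pooled signal values of the 300 ran from 2044 at rank 1 to 345 at rank 300, with a median of 445, and those of ranks 21 to 300 from 841 to 345 with a median of 434. The curve had no step at its lower end. Just inside were Tet, an intronic summit at rank 298 (345.9), GstE12 at rank 299 (345.4) and puc at rank 300 (345.2). Just outside were the promoter of lawc at rank 301 (344.654), an intron of Shawl and Aldh at rank 302 (344.651) and a summit 8091 bp from spel1 at rank 303 (344.567). A difference of 0.559 in signal value separated rank 300 from rank 301, and no gap in signal marks the boundary.

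**Figure D1:**
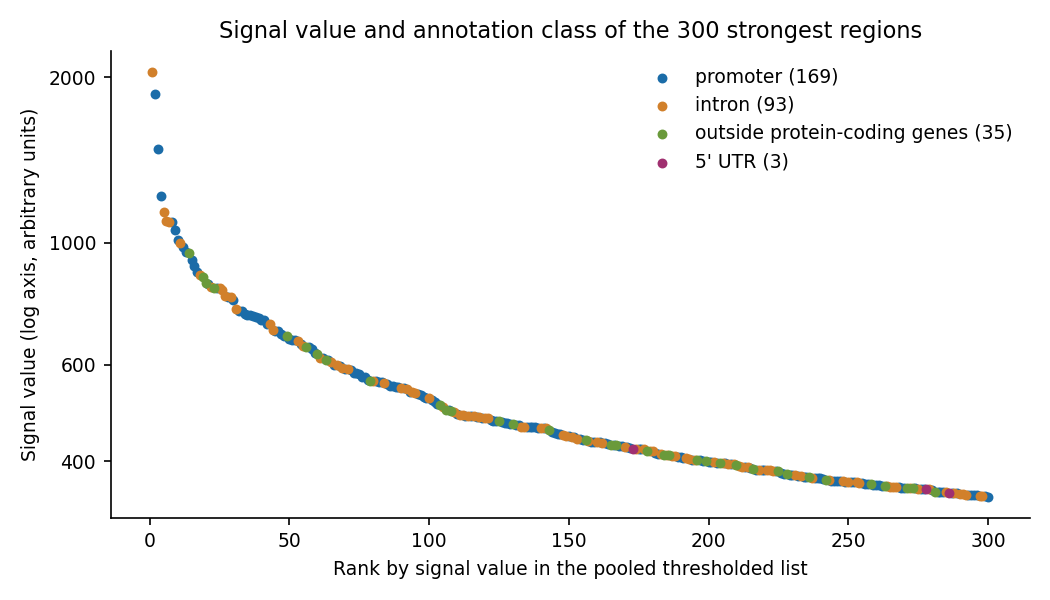
Signal value (log axis, no stated scale) of the 300 strongest regions against their rank in the pooled thresholded list, 1 point per region, coloured by annotation class. Values drop steeply over the first 20 ranks, from 2044, and then gradually to 345, with promoter and intronic summits at all heights.

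Ranks 21 to 60 held 40 regions with signal values of 841 to 628. Of these, 26 were promoter summits, 10 were intronic and 4 lay outside protein-coding genes, and 11 of the promoter summits lay within 500 bp of starts of 2 genes. In all 40 the region was among the best 300 of each replicate, as in all of ranks 1 to 100, against 7.77% of all thresholded regions. Pooled ranks come from the reads of the same replicates, so this is built in at least in part. Replicate ranks of the 40 were 14 to 144 in replicate 1, 12 to 103 in replicate 2 and 6 to 98 in replicate 3. Genes for regulators of gene expression stood at several of these summits. Syp (rank 21, 841), an RNA-binding protein of the hnRNP family, had its summit 234 bp upstream of a start and ranked 25, 29 and 20 in replicates 1, 2 and 3. A second member lay at another start of Syp, 124 bp upstream (rank 163, 432), with replicate ranks 110, 316 and 92, so replicate 2 placed it lower. The 2 summits were 4198 bp apart.

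Transcription and chromatin genes in this block were Dll, Trl, ph-p and Sox14. Dll (2R, 24814598 to 24814848, rank 30, 787) encodes the homeodomain factor of limb development, and its summit lay 97 bp upstream of a start and ranked 39, 41 and 15. Trl (3L, 14759389 to 14759663, rank 31, 759) encodes GAGA factor, a DNA-binding protein of open promoters. Its summit was intronic and 1533 bp from a start, and the region ranked 22, 40 and 42. The Polycomb group gene ph-p on X held 2 members, at rank 39 (729) and rank 197 (402), 453 bp upstream and 411 bp downstream of a start. Sox14 (2R, 23978450 to 23978671, rank 40, 723), an ecdysone-induced HMG-box factor, ranked 85 in replicate 1 against 19 and 63 in the others. Hpf1, a cofactor of poly(ADP-ribose) polymerase, was at rank 41 (723) with a summit 101 bp upstream. The translational repressor gene pum held an intronic summit at rank 44 (694) that ranked 69, 49 and 31.

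Metabolic and membrane genes were also among the 40. The glycolytic enzyme gene Gapdh2 (X, 15867868 to 15868103, rank 38, 732) had its summit 183 bp upstream of the start and ranked 24, 78 and 23. Lpin (2R, 8146121 to 8146319, rank 57, 645), a phosphatidate phosphatase of fat body lipid storage, ranked 50, 73 and 51. LpR2, a lipophorin receptor, had an intronic summit (rank 43, 711), and GstE13, a glutathione S-transferase, a summit 58 bp inside the gene (rank 50, 667). Rtnl1 (rank 37, 737) encodes a reticulon that shapes the endoplasmic reticulum, Trp1 (rank 32, 752) a subunit of protein translocation into it, and Fkbp14 (rank 47, 683) a prolyl isomerase of its lumen. For Fkbp14 the replicates differed more, with ranks 20, 82 and 66. Tina-1 was at rank 24 (827), and Rtnl1, Trp1, Fkbp14 and Tina-1 all had the summit upstream of the start, by 257, 108, 108 and 156 bp.

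Translation and tRNA genes were at rank 28 (Tcs5, 796), rank 36 (Art3 with mRpS10, 738) and rank 54 (eIF6, 655). Tcs5 encodes a kinase of the complex that modifies tRNAs, and its summit was shared with CHMP2B, a gene of the ESCRT machinery. Art3 is an arginine methyltransferase gene, mRpS10 a mitochondrial ribosomal protein gene and eIF6 a factor of the large ribosomal subunit. Replicate 1 placed eIF6 at 99, and replicates 2 and 3 at 37 and 48. Signalling genes were for (rank 55, 649), a cGMP-dependent protein kinase with an intronic summit 1146 bp from a start and a second member at rank 102, and gish (rank 59, 631), a casein kinase. An intron of dnr1, a ubiquitin ligase that limits immune signalling, held rank 29 (796), where replicate 3 gave rank 6 and replicates 1 and 2 both 46.

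Other summits of this block that were shared by starts of 2 genes were those of CG8360 and CG8372 (rank 33), Pdrg1 and Pal1 (34), CG8320 and the peroxisome gene Pex11ab (42), CG9147 and Fbw5 (45), CG13390 and CG17294 (46), CG11309 and CG7632 (48), CG5098 and CG5757 (52) and tank and CG12194 (58). CG31145 had a summit of its own (rank 35). The remaining introns were those of CG3726 (rank 22, 832), CG32486 (25, 826), CG9663 (26, 821), CG12769 (27, 801) and CG4496 (53, 662). Outside protein-coding genes the summits lay 3783 bp from CG31668 (rank 23, 828), 1287 bp from DNAlig3, a DNA ligase gene (rank 49, 676), and 6040 and 5016 bp from CG4004 (ranks 56 and 60, 647 and 628).

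Members of gene lists of pathways and cell functions lay at ranks throughout the 300. Of 13968 protein-coding genes, 211 (1.51%) had a promoter summit among the 300 and 1252 (8.96%) among all thresholded regions. With summits inside a gene counted too, 318 genes (2.28%) had one among the 300. This count favours long genes, and list shares based on it were not adjusted for gene length. The longest gene holding an intronic member had a median length of 19464 bp, against 2164.5 bp for all protein-coding genes. A promoter summit counts for each gene with a start within 500 bp, so a list gene may share it with a gene outside the list. The summits counted for mRpS23, eIF4EHP, Mkk4 and Vha100-2, for example, lay nearer to starts of CenG1A, CG18428, SLIRP2 and Vti1b. Cytoplasmic ribosomal protein genes had 9 of 86 (10.5%), although 48 (55.8%) had one among all thresholded regions. All 9 ranked below 170: RpL41 at 171 (425), RpL14 at 191 (406), RpL7 at 203 (398), RpL24 at 230 (378), RpL30 at 232 (377), RpS27 at 234 (375) and the other 3 at 240 to 268 (372 to 359). The replicates ordered them differently. RpL7 ranked 378, 185 and 108 in replicates 1, 2 and 3, and RpL30 ranked 172, 482 and 173. The summits of the 6 named lay close to the start, from 34 bp downstream (RpL7) to 53 bp upstream (RpL41 and RpL14).

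Mitochondrial ribosomal protein genes had 4 of 75 (5.33%), all at rank 97 or above: mRpS23 and mRpL41, among the first 20, mRpS10 at 36 and mRpL23 at 97 (529). Translation factor genes had 4 of 56 (7.14%), larp, among the first 20, eIF6 at 54, eIF4EHP, a cap-binding translational repressor, at 68 (598), and pAbp, the poly(A)-binding protein, at 269 (358). For pAbp the summit was 482 bp downstream of a start, and the replicate ranks were 537, 190 and 232.

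Heat shock and chaperone genes had 3 of 20 (15.0%). Besides Hsp27, these were the chaperone Hsp83 at rank 131 (467) and the small heat shock gene Hsp26 at 259 (363), with summits 100 and 110 bp upstream of the start and both ranked lowest in replicate 2, at 327 and 440. Hsp83 also held an intronic member at rank 149 (446). JNK and stress signalling genes had 3 of 23 (13.0%), Mkk4, a kinase of the cascade, at rank 132 (465), cbt, a zinc-finger factor, at 235 (375), and puc, the phosphatase that feeds back on JNK, at 300. Mkk4 ranked 151, 137 and 139, while puc ranked 108 in replicate 1 and 590 and 746 in the other two.

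Ecdysone cascade genes had 2 of 31 with a promoter summit (6.45%), Sox14 and E23, an ABC transporter gene that limits ecdysone signalling, at rank 176 (421). Counting summits inside a gene there were 7 (22.6%). The intronic ones were in the nuclear receptor genes Hr4 (rank 18, and rank 218 with 387), Eip78C (rank 61, 617) and Eip75B (rank 90, 544), in the chromatin remodeller gene Mi-2 (rank 180, 418) and in tai (rank 288, 350), whose protein is a coactivator of the ecdysone receptor. The summit in Mi-2 also lay inside Su(Tpl), which had the nearest start, 6134 bp away. Eip78C ranked 61, 88 and 58, and tai 198, 1001 and 134, the highest rank number of any member in replicate 2. Insulin and TOR pathway genes had 3 of 23 (13.0%): Lpin, REPTOR, a transcription factor held back by TOR, at rank 87 (548), and Sesn, a sestrin that restrains TOR, at rank 113 (485).

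Carbohydrate metabolism genes had 4 of 20 (20%), Ugalt, Gapdh2, the enolase gene Eno at rank 164 (429) and the hexokinase gene Hex-A at rank 293 (347). A region inside Pgk, which encodes phosphoglycerate kinase, was at rank 82 (558), in the promoter of another gene. Hex-A was the single member in the best 300 of no replicate, at ranks 308, 312 and 369. Chromatin genes had 2 of 53 with a promoter summit (3.77%), Chro and ph-p, and 7 (13.2%) counting summits inside a gene. The intronic ones were osa, Trl, Psc, of the Polycomb group (rank 112, 486), Mi-2 and trx, of the trithorax group (rank 272, 358).

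Other lists covered RNA-binding, developmental and signalling genes. RNA processing and RNA-binding genes had 3 of 41 (7.32%), Syp, elav, the pan-neuronal RNA-binding protein, at rank 129 (469, replicate ranks 122, 133 and 146), and pAbp. With summits inside a gene counted, 6 (14.6%) had one, against 2.28% of all protein-coding genes, with no adjustment for gene length. Those added were pum, mbl (rank 248) and spen (ranks 279 and 286). Neuronal and synaptic genes had 1 of 47 (2.13%), elav again. Developmental transcription factors had 3 of 99 (3.03%), Dll, Sox14 and the zinc-finger gene shn at rank 89 (545), which ranked 43, 239 and 83. Notch pathway genes had 1 of 30, the corepressor gro at rank 155 (438), and an intronic summit in neur, a ubiquitin ligase, at rank 114 (485). The Wnt, Hedgehog and Dpp list had 1 of 29, the kinase gene sgg at rank 238 (373), and an intronic summit in the morphogen gene dpp at rank 211 (392). Lipid metabolism genes had 2 of 22 (9.09%), Lpin and CG3961 at rank 200 (399). Genes of transport and mitochondria had 3 of 111 (2.70%), PNPase, Vha100-2 at 141 (460) and ND-ASHI at 147 (448). The circadian list had 2 of 14 (14.3%), E23 and sgg, which other lists also hold. None of 33 innate immunity, 49 cytoskeleton and adhesion, 32 apoptosis and autophagy, 24 EGF receptor and Ras, 16 Hippo pathway and 16 forkhead family genes had a promoter summit among the 300. At the share of 1.51% over all protein-coding genes, a count of 0 in lists this small does not show an absence. Among all thresholded regions these lists had 2, 15, 6, 7, 6 and 3 genes with a promoter summit, in that order. Some genes of these lists held 1 or more of the 300 summits inside. In the EGF receptor and Ras list these were edl (rank 160) and Raf, which held 3. In the Hippo list they were ex (rank 105) and Diap1 (rank 265), and in the cytoskeleton list tsr (rank 221) and mew (rank 233). CHES-1-like, a forkhead gene, held a summit at rank 193 (404, replicate ranks 315, 214 and 192).

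Of the 211 genes with a promoter member, 62 (29.4%) were known by a CG number only, against 43.7% of all protein-coding genes. More than 1 member lay in each of 16 genes, whose lengths ran from 4091 bp (Hsp83) to 124709 bp (CG1677). Raf, the kinase of the Ras pathway, was the one that held 3, at ranks 195 (403), 278 (356) and 292 (348), in a span of 4386 bp on X between summits. Its replicate ranks were 275, 203 and 133, then 351, 297 and 321, then 578, 261 and 188, so replicate 1 placed each of the 3 lowest. Members lay within 10 kb of another in 21 clusters that held 45 members. Clusters of 3 were those in Raf, at Atat, a tubulin acetyltransferase gene, with its neighbour aay (3L, 9419982 to 9427070, ranks 284, 64 and 110), and between CG4004 and Paics (X, 12751227 to 12754629, ranks 60, 56 and 225), where no protein-coding gene held a summit.

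Promoter summits were more frequent among the 300 than among weaker regions. They numbered 169 of 300 (56.3%, 95% Wilson interval 50.7 to 61.8) against 920 of the other 2095 (43.9%), a difference of 12.4 percentage points (Newcombe interval 6.37 to 18.3). Over all 2395 regions the share was 45.5%. Intervals cover counting error over regions, which are not replicates. Among ranks 1 to 100 it was 63.0%, among 101 to 200 and 201 to 300 53.0% each, and it was 45.7% for ranks 301 to 600, 45.7% for 601 to 1200 and 42.6% beyond. Introns held 93 (31%) against 39.0%, a difference of -8.00 points (-13.4 to -2.17). Outside protein-coding genes there were 35 (11.7%) against 15.4%, with an interval of the difference that includes 0 (-7.29 to 0.634). No summit lay in a coding exon or a 3′ UTR away from promoters, which allows a share of up to 1% by the limit of 3 counts and 1.26% by the Wilson interval. Among the other 2095 these classes were also nearly empty, with 4 (0.191%) and 14 (0.668%), so the count of 0 sets the 300 apart from neither. The 3 in 5′ UTRs (1%, against 0.811%) were in baz, a polarity gene (rank 173, 422), Raf (rank 278) and spen, a transcriptional corepressor gene (rank 286, 351).

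The same contrast was computed in each replicate from its own list, best 300 against ranks 301 to 2395, which uses the replicate's own signal and no pooled value. The promoter share was 56.3%, 53.3% and 57.3% in the best 300 of replicates 1, 2 and 3, and 46.9%, 44.8% and 46.3% in the later ranks. The difference was 9.67 ± 1.27 percentage points (SD, n = 3) and was positive in 3 of 3 replicates. The exact two-sided sign-flip permutation test gave p = 0.25, the smallest that 3 replicates allow, so the design cannot reach 0.05. Intron shares differed by -6.28 ± 0.837 points (SD, n = 3, exact permutation p = 0.25). The best 300 of the replicates share many regions, as given below, so the replicates are not independent draws of the genome.

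Where a strong summit fell relative to the start also differed. Of the 169 promoter summits, 142 (84.0%, 95% Wilson interval 77.8 to 88.8) were upstream of the nearest start, against 76.6% of the 920 others, and 77.8% over all 1089 promoter summits. The difference was 7.39 points (Newcombe interval 0.597 to 12.9). The median position was 143 bp upstream among the 300 and 96 bp upstream among the others. Summits 50 to 250 bp upstream made up 63.9% against 45.8% (difference 18.1 points, 10 to 25.7), and those within 50 bp of the start 10.1% against 22.5% (difference -12.4 points, -17.1 to -6.40). In the replicates' own lists the upstream share was 86.4%, 85.0% and 84.9% in the best 300 and 73.0%, 77.0% and 74.0% later, a difference of 10.7 ± 2.69 points (SD, n = 3, exact permutation p = 0.25). Examples are Syp at 234 bp, Gapdh2 at 183 bp, REPTOR at 203 bp, Sesn at 226 bp and elav at 221 bp upstream. Summits shared by starts of 2 or more genes were 48 of 169 (28.4%) against 24.3%, with an interval of the difference that includes 0 (-2.83 to 11.7).

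**Figure D2:**
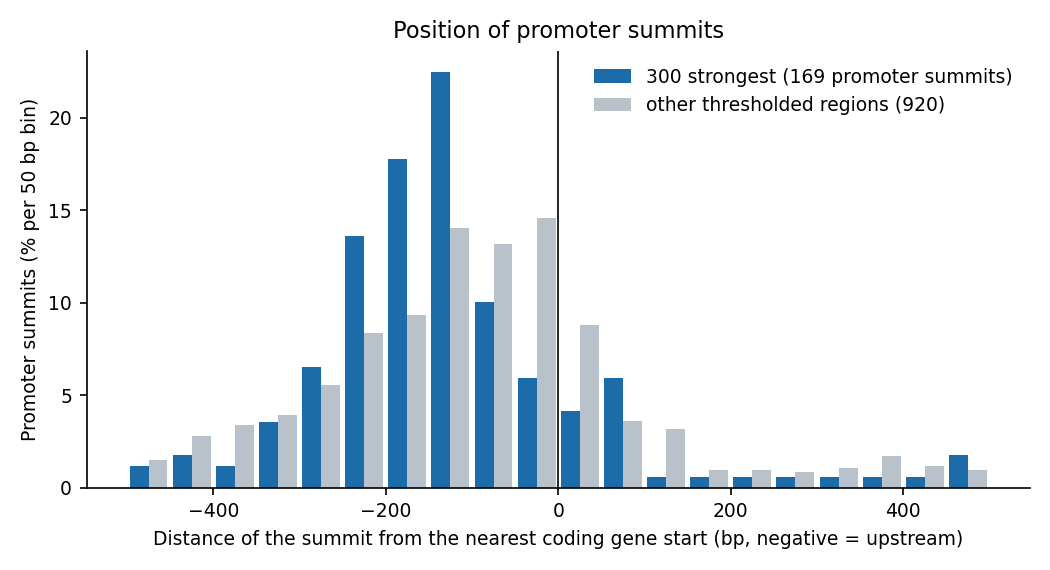
Share of promoter summits in each 50 bp bin of distance from the nearest protein-coding start (negative is upstream), for the 169 among the 300 strongest and the 920 among the other thresholded regions. The strongest are highest 100 to 150 bp upstream (22.5%), and the others 0 to 50 bp upstream (14.6%).

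Intronic members lay a median of 1813 bp from a start. Of the 93, 26 (28.0%) were more than 5 kb away against 37.7% of the 817 other intronic summits, with an interval of the difference that includes 0 (-18.5 to 0.638). The farthest, in CG42238, was 40528 bp from a start (2L, 21009427 to 21009611, rank 71, 589). The longest gene holding an intronic member had a median length of 19464 bp, against 30068 bp for the other intronic summits and 2164.5 bp for all protein-coding genes. Summits outside protein-coding genes were a median of 4690 bp from the nearest start and up to 59049 bp, for a summit nearest Or67d, an odorant receptor gene (3L, 10332045 to 10332460, rank 167, 428).

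Strong regions were narrow. In the thresholded list 416 bp was the modal width, and 174 of the 300 (58.0%, 95% Wilson interval 52.3 to 63.4) were narrower, against 20 of the other 2095 (0.955%) and 8.1% of all 2395. The share of narrow regions was 96% for ranks 1 to 100, 52% for 101 to 200 and 26% for 201 to 300, then 5.67% for ranks 301 to 600 and 0 of 1195 beyond rank 1200. Narrow members had a median width of 197.5 bp, and the median over the 300 was 255.5 bp. The first at full width was at brwl (rank 75), and 125 members had exactly 416 bp, so the widest after rank 1 (an intron of CG11050, 481 bp) are tied. The narrowest, at 105 bp, were 4: CG3009 (rank 101), scyl (108), CheA75a (165) and puc (300). Among the 174 narrow members width fell with rank number (Spearman's rho -0.795, a description across regions). Narrow members were promoter summits in 51.1% of cases and full-width members in 64.0%. The best 300 of all 3 replicates held 82.2% and 33.6% of them, against 7.77% of all thresholded regions. Narrow members had a median pooled rank of 91.5 and full-width members 228. The share held depends on pooled rank by construction, so this difference cannot be told apart from rank.

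Each replicate list also had a modal width, 404 bp in replicates 1 and 3 and 390 bp in replicate 2, which was the median of both its best 300 and its later ranks. The difference in median width was therefore 0 in all 3 (exact permutation p = 1). Regions under the modal width made up 40.3%, 32.3% and 23% of the best 300 of replicates 1, 2 and 3, and at most 0.286% of the later ranks. The mean width differed by -70.9 ± 19.5 bp (SD, n = 3, exact permutation p = 0.25). How the caller set a width is not known here.

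**Figure D3:**
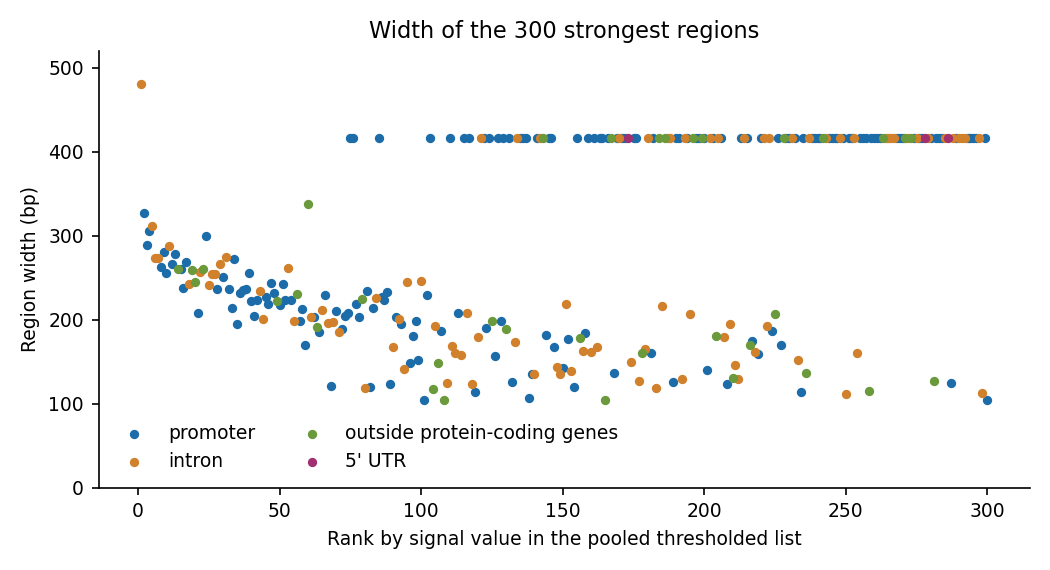
Width in bp of each of the 300 strongest regions against rank, coloured by annotation class. A band of narrow regions drops from about 300 bp to near 105 bp, and regions of 416 bp appear from rank 75 on and make up most of the last 100 ranks.

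Most of the 300 were also among the best-ranked regions of each replicate. Of the 300, 186 (62.0%, 95% Wilson interval 56.4 to 67.3) were among the best 300 of all 3 replicates. A further 87 were so in 2 replicates, 26 in 1 and 1 in none. Over all thresholded regions the share was 7.77%, with 0 of the other 2095 held by all 3. Members were chosen on pooled reads of the same replicates, so their higher share is partly built in. All 100 of ranks 1 to 100 were held by all 3, as were 79 of ranks 101 to 200 and 7 of ranks 201 to 300. Pooled ranks come from the reads of the same replicates and the last members lie at the limit of 300, so this gradient is built in and shows no difference in agreement. Replicates 1, 2 and 3 held 248, 254 and 256 members in their best 300 and 293, 297 and 296 in their best 600. Without replicate 1 the best 300 of both others held 222, without replicate 2 it was 216 and without replicate 3 it was 207. Of each replicate's own best 300, 298, 296 and 298 were in the thresholded list.

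Across members listed by both replicates, the Spearman correlation of ranks was 0.603 for replicates 1 and 2 (297 regions), 0.664 for 1 and 3 (297) and 0.733 for 2 and 3 (300). For the other thresholded regions it was 0.374, 0.409 and 0.443. These are descriptions across regions, which share a control file and were selected on the pooled value. Within narrower rank ranges the values for the same pairs were 0.539, 0.675 and 0.787 (ranks 1 to 100), -0.286, -0.134 and 0.060 (101 to 200) and -0.563, -0.318 and -0.080 (201 to 300). A narrow range of pooled rank holds members that are high in some replicates and low in others by construction. The relative spread was similar in all 3 ranges, with a median log2 ratio of the highest to the lowest replicate rank of 0.97, 1.00 and 1.04. Of the 297 members listed by all 3, the highest and lowest replicate rank differed by no more than 2-fold for 149 and by over 4-fold for 25. The 5 with the largest spread were a summit nearest RYBP (rank 104, replicate ranks 533, 84 and 53), one nearest scyl (108, with 44, 435 and 154), that in dnr1 (29, with 46, 46 and 6), tai (288) and puc (300). No replicate was the odd one in all 5.

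Replicate 1 did not list 3 members at all, although the other replicates placed each within rank 348. They were the promoter of Mnat9 (3R, 31615989 to 31616404, rank 198, 402), ranked 152 and 196 in replicates 2 and 3, an intron of tsr, the cofilin gene (2R, 24045166 to 24045581, rank 221, 385), ranked 348 and 200, and the promoter of RpS27 (3R, 25247477 to 25247590, rank 234, 375), ranked 181 and 204. The nearest summit in replicate 1 was 4852, 1543 and 1184 bp away. In the dm3 lists, 2 of the best 300 were not listed by replicate 1.

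X-linked members ranked lower in replicate 1. Of 60 X-linked members, 39 (65.0%), 55 (91.7%) and 51 (85.0%) were in the best 300 of replicates 1, 2 and 3, and of 240 autosomal members 209 (87.1%), 199 (82.9%) and 205 (85.4%). The difference, X minus autosomes, was -22.1 points in replicate 1 (Newcombe interval -35.2 to -10.2), 8.75 in replicate 2 (-1.87 to 15.8) and -0.417 in replicate 3 (-12.2 to 8.12). Median ranks of the X-linked members were 242, 161 and 155, and of the autosomal ones 140, 148.5 and 149.5. Outside the best 300 of replicate 1 alone were 16 X-linked members, against 2 of replicate 2 alone and 4 of replicate 3 alone, while for autosomal members these counts were 20, 28 and 17. Of each replicate's own best 300, X held 14.3%, 22.7% and 22.3%, and of its later ranks 15.5%, 17.5% and 19.5%. Hr4, for instance, ranked 57, 16 and 14. Sexes were pooled in each replicate, and the cause of the difference was not tested.

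**Figure D4:**
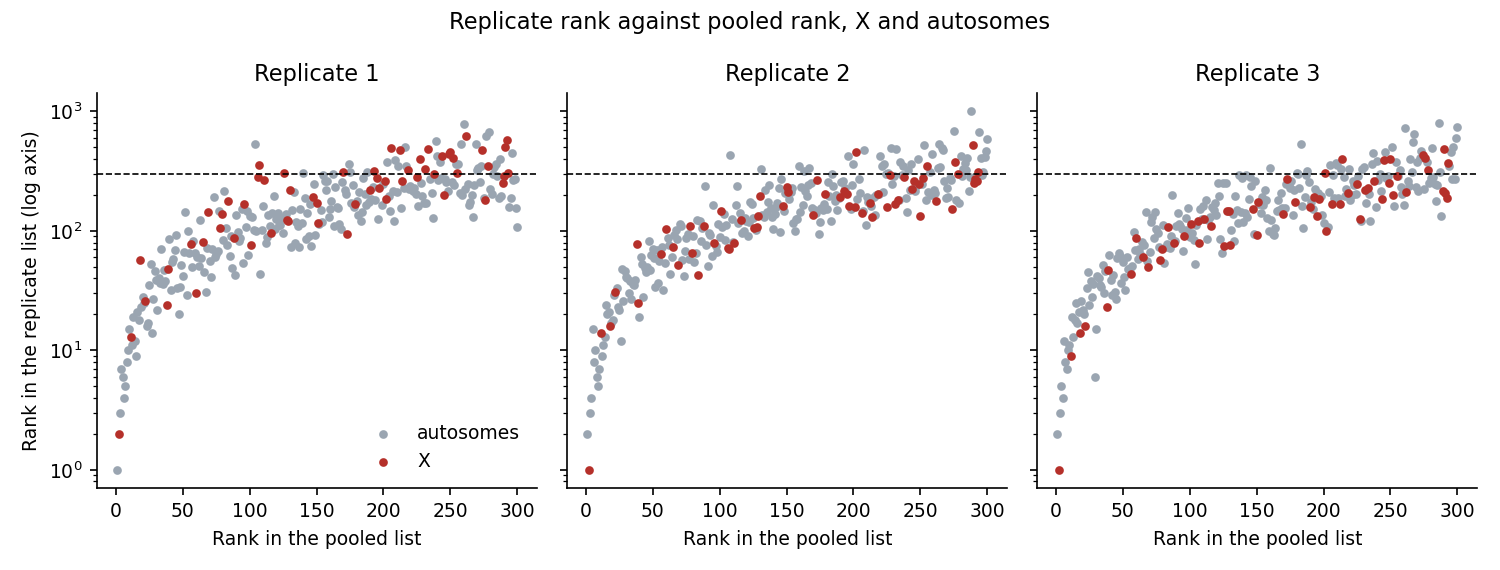
Rank in each replicate's own list (log axis) against rank in the pooled list for the 300 strongest regions, X-linked in red and autosomal in grey, with the dashed line at rank 300. In replicate 1, 39 of 60 X-linked regions are at or under the line, against 55 in replicate 2 and 51 in replicate 3. The 3 members that replicate 1 did not list have no point there.

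By arm, there were 57 on 2L, 54 on 2R, 62 on 3L, 67 on 3R and 60 on X, or 2.09 to 2.55 per Mb. On chromosomes 4 and Y there was none. The other 2095 regions had 5 (0.239%) on chromosome 4 and 0 on Y, so this does not set the 300 apart. X held 20% of the 300 and 17.5% of the others, with an interval of the difference that includes 0 (-1.98 to 7.62). On 3L, 71.0% of members were in the best 300 of replicate 2, against 88.7% and 85.5% in replicates 1 and 3.

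Base composition changed sharply at the summits. Mean GC content in 51 bp windows was 32.1% ± 9.67 (SD over 300 regions) at the summit and 46.7% ± 7.72 at 150 bp to either side, against 42.1% over the arms. For the other thresholded regions the values were 35.9% and 43.3%. The drop from shoulder to summit was 14.6 percentage points for the 300 and 7.38 for the others, and the summit was lower than its own shoulders in 264 members (88.0%, 95% Wilson interval 83.8 to 91.2) against 69.2% of the others. It was present in each class, at 13.4 points for promoter, 17.1 for intronic and 14.2 for members outside protein-coding genes. In the replicates' own lists the drop was 14.6, 12.9 and 13.1 points in the best 300 and 7.16, 6.81 and 5.21 later, a difference of 7.13 ± 0.902 (SD, n = 3, exact permutation p = 0.25). This measure was added after the profile had been seen. The cause of the drop was not tested.

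**Figure D5:**
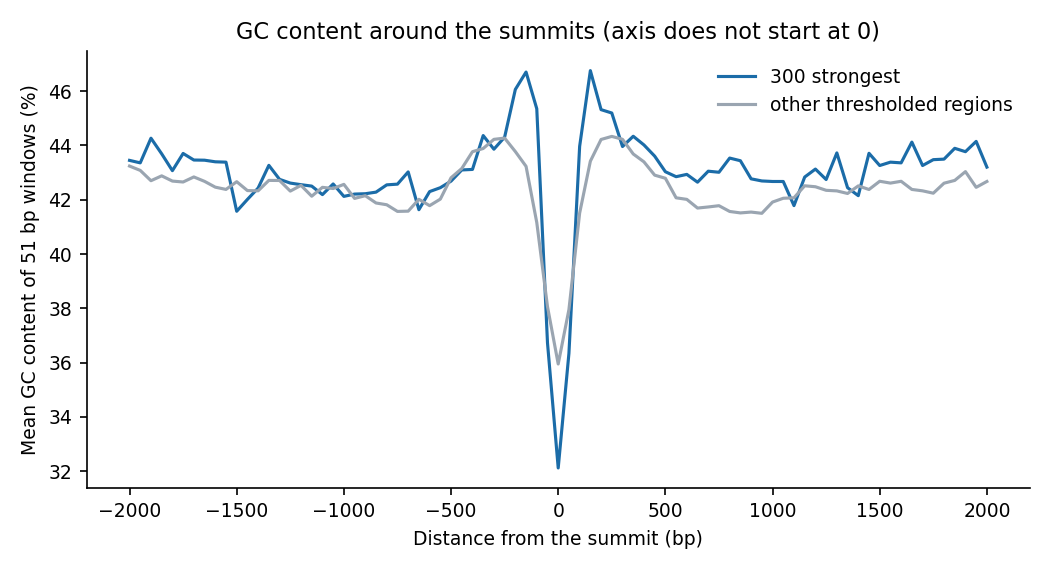
Mean GC content in 51 bp windows against distance from the summit for the 300 strongest and the other thresholded regions, on an axis that does not start at 0. The strongest regions reach 32.1% at the summit between shoulders of 46.7% and 46.8%, and the others 35.9% between shoulders of 43.2% and 43.4%.

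The forkhead core TAAACA, searched on both strands within 100 bp of the summit, was present at 78 of the 300 (26.0%, 95% Wilson interval 21.4 to 31.2). It was in 23.1% of the other thresholded regions, 23.5% of all of them, 20% of windows 1000 bp to either side of the members, 17.7% of 681615 windows of the same length over the arms and 23.5% of windows upstream of protein-coding starts. The excess over the members' own flanks was 6.00 points (Newcombe interval 0.257 to 12). The mirror sequence ACAAAT, which has the same letters in reverse order and is not a forkhead core, was at 30.3% of summits and 21.7% of flanks, an excess of 8.67 points. The core's excess was the smaller of the 2, and their difference was not tested. Longer forms that contain the core were rarer, GTAAACA at 6.67% against 4.50% in flanks and ATAAACA at 10% against 7.83%. The related TAAATA was at 43.0% against 25.7%, and at 38.9% of upstream windows.

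By rank, the core was present at 35 of ranks 1 to 100, 25 of ranks 101 to 200 and 18 of ranks 201 to 300, and at 20.7% of ranks 301 to 600. Within the first 100 it was at 26.0% of ranks 1 to 50 and 44.0% of ranks 51 to 100, so the share did not follow rank step by step. In the replicates' own lists it was at 26.7%, 25.7% and 26.0% of the best 300 and 22.7%, 21.4% and 22.7% later, a difference of 3.82 ± 0.490 points (SD, n = 3, exact permutation p = 0.25). Of the 40 members at ranks 21 to 60, 15 had the core within 100 bp, among them the 6 whose sequences are printed above with it. GAGAG, which GAGA factor recognises, stood at 30.7% of the 300, 33.7% of the other thresholded regions and 23.2% of the members' flanks. The E-box CACGTG was at 3.67% of summits and 2.83% of flanks, the nuclear receptor element AGGTCA at 4% and 5.67%, and the AP-1 site TGANTCA at 3.33% and 4.33%. A match to letters is not a bound site, and a missing match says nothing about binding.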

How the data were processed

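FoxP-eGFP ChIP-seq regions of 3 biological replicates were analysed in dm6, and the dm3 lists were an alternative. Per the submitters' file sheets, the authors called regions on each replicate's aligned reads against 1 shared control file per build, and the thresholded list came from the authors' irreproducible discovery rate step, run on pooled reads, in its optimal form. Which aligner and caller were used is not given in the sources used here. As deposited, the signal value is the authors' score, with no stated scale. It ranked regions within a list. Start, end and summit are the authors' positions, given here 1-based. Read depth is unknown, so no interval for a region's signal can be given. The replicate lists held 29975, 24326 and 22678 arm regions.

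A member's replicate rank is that of the region holding its summit, or of the nearest summit within 200 bp. Gene models were from Ensembl release 115 (BDGP 6.54). Summits were classed by the first that applied: promoter, then 5′ UTR, then coding exon, then 3′ UTR, then intron, else outside protein-coding genes. A promoter summit counts for each gene with a start within 500 bp. Of the gene list symbols, those not in the annotation were left out. Intervals are Wilson (shares) and Newcombe (differences) at 95% and cover counting error only. Replicate differences were tested by an exact two-sided sign-flip permutation test. Motifs were searched on both strands. Matching and motif search were tested on simulated data with planted regions and motifs. Python 3.11.15, pandas 2.3.3, NumPy 2.4.6, SciPy 1.17.1 and matplotlib 3.10.9 were used.

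Genes named are ranks 21 to 60, up to 6 members per list, genes holding 3 or more members, members at the boundary of the list and of width, members missing from a replicate, the 5 with the largest rank spread, and summits in 5′ UTRs. List members with a summit inside the gene alone were named after their values had been seen. The members, gene lists, rules and tests were chosen with earlier results of these data known. The upstream share, mean width, narrow share, GC drop, the split by X and the 6-letter words were added after the values had been seen. Alternatives were other list lengths, promoter and motif windows, matching rules, dm3 lists and leaving out each replicate. Mitochondrial regions were left out of the 300. The genes at 1 summit of ranks 21 to 60 are not reported here.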

Additional observations from a re-analysis of the deposited data

Results flagged for a closer look

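Regions on the mitochondrial genome lay outside the 300 by the rule that chose them. The thresholded list held 20, and 19 of them had a signal value above that of the 300th arm region. The highest was 5821, against 2044 for the first arm region. They appeared in the lists of replicates 1 and 3, with 25 and 20 regions, and replicate 2 listed 0. No control chromatin was analysed here, so whether these values exceed those of a line without the tag was not tested.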

How the results depend on the processing

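Of 75 alternative settings over 15 results, 0 reversed a direction and 60 stayed within the bounds set for each kind of value: 1.5 times for a count, the 95% interval for a share or median, the spread between pairs for a correlation, and the direction for a mean over replicates. Counts, shares and medians had no direction to reverse. A mean over 3 differences of the same sign could not reverse with a replicate left out. Much of the 0 and part of the 60 were thus fixed in advance and do not measure robustness. The count of members held by the best 300 of all 3 replicates was 286 with the best 600, 297 with the best 2395 and 113 with a reciprocal overlap of at least 50%. It ran from 207 to 222 when a replicate was left out. The promoter share of the 300 was 38% with a window of 200 bp and 67% with 1000 bp, from construction of the class, and 58.1% to 58.5% with a replicate left out. Median width was 224.5 bp for the strongest 150 and 416 bp for the strongest 600, and 230 to 235.5 bp with a replicate left out. The share narrower than the modal width was 84.7% for the strongest 150 and 31.8% for the strongest 600, and 68.1% to 72.5% with a replicate left out. The upstream share of promoter members was 77.1% with a window of 1000 bp. Settings that leave out a replicate keep members held by both others, so they favour higher ranks. The excess of the forkhead core over flanks ran from 5 points (window 200 bp) to 7.50 (flanks at 2000 bp), and from 8.45 to 9.23 with a replicate left out. The difference in promoter share between the 300 and the other regions was 7.38 points with the strongest 600 and 16.9 with the strongest 150, and within replicates it was 4.62 points with a window of 200 bp. With 1 group there were no groups to pair, and the contrasts of best 300 against later ranks were taken within each replicate. With 3 replicates no exact test can pass 0.05, and unknown depth limits what the ranks of weak members can show.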

Other observations

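Of the 35 members outside protein-coding genes, 8 had a summit within 500 bp of a start of a noncoding gene. This share is not given here for the 323 other summits outside protein-coding genes, so it is not shown to set the members apart. The promoter share of the 300 exceeded that of the other regions by 12.4 points with protein-coding starts, and by 12.4 with starts of all gene types. The strongest of the 8 was 163 bp upstream of lncRNA:CR31044 (3R, 29214285 to 29214544, rank 14, signal value 960). The gene lncRNA:CR46006 on 3L had 2, 208 and 142 bp upstream of its starts, at ranks 167 (428) and 196 (402), 2 of the 3 members farthest from any protein-coding start. The others were at lncRNA:CR44619 (rank 56, 647), lncRNA:CR44676 (rank 125, 474), lncRNA:CR43651 (rank 199, 400), lncRNA:CR45595 (rank 271, 358) and Uhg4, a host gene of small nucleolar RNAs (rank 273, 358).

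Words of 6 letters within 50 bp of the summits were counted on both strands, and those with the largest excess over flanks were taken, so these values are a description chosen by its own result. ATTTAA was at 33.3% of the 300, 23.5% of the other thresholded regions and 13.3% of the members' flanks, and its mirror AATTTA at 24.7% of the 300. TTAAAA was at 35.3%, 27.4% and 16.8%, and its mirror AAAATT at 28.7% of the 300. All 10 words with the largest excess were made of A and T alone.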
